A study of Mus musculus with 8 samples.

Results

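Transcripts of 10 genes for matrix proteases, their inhibitors and secreted matrix-binding proteins were followed in mouse bone marrow-derived macrophages (BMDMs), macrophages grown in culture from bone marrow cells. The genes were picked by symbol, with earlier results of these data known, from the 54532 genes of the count table. All 10 passed the filter on low counts that left 12234 genes for testing. They are the matrix metalloproteinases Mmp8, Mmp9, Mmp13, Mmp14 and Mmp19, the aggrecanase Adamts4, the tissue inhibitors of metalloproteinases Timp1 and Timp2, fibronectin (Fn1) and pentraxin 3 (Ptx3). Control cells received no stimulus. LPS cells received 100 ng/ml lipopolysaccharide, a component of the outer membrane of Gram-negative bacteria, for 4 h. IL-4 cells received 20 ng/ml interleukin 4, a cytokine of type 2 immunity, for 24 h. In the remaining group, IL-4 then LPS, 24 h of 20 ng/ml IL-4 and a wash were followed by 4 h of LPS at 100 ng/ml. There were 2 libraries per group, numbered 1 and 3 by the labels and named here as replicates. Strain, age, sex and the number of animals, and whether IL-4 cells were washed and kept for a further 4 h, are not given in the sources used here. The model is a macrophage culture and the readout is RNA, so protein, enzyme activity and matrix were not measured.

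Matrix metalloproteinases are zinc endopeptidases made as inactive proenzymes. Most are secreted, whereas Mmp14 is held in the plasma membrane, and the propeptide must be removed or displaced before they cleave collagens, gelatin, proteoglycans or cell-surface proteins. TIMPs bind the active enzymes and block them, and Timp2 also takes part in the activation of proMMP2 at the cell surface together with Mmp14. Macrophages use these enzymes in tissue entry, in the clearance of matrix and in wound repair, and they also lay down proteins such as fibronectin and pentraxin 3 that become part of the matrix.

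Library totals ran from 7924932 to 9431852 counts. Levels are given as CPM, the reads of a gene per 1000000 reads of a library, whose total was first adjusted by its TMM (trimmed mean of M-values) factor. LPS split the libraries along principal component 1 (78.5% of variance over tested genes), and replicates 1 and 3 were split along component 2 (7.78%). Along component 3 (5.8%), libraries with IL-4 (-26.68 to -14.88) lay apart from those without it (17.25 to 24.95). All 8 macrophage markers looked at (Adgre1, Csf1r, Cd68, Itgam, Mertk, Fcgr1, Lyz2 and Cd14) had reads in every group, with a summed level of 12320 to 24920 CPM per library. Markers of neutrophils and their precursors summed to 0.864 to 8.14 CPM over 11 genes, and the defining markers Ly6g and Elane had no read in any group. Of 9 fibroblast and stromal markers, 6 had reads in each of the control, LPS and IL-4 then LPS groups and 8 in the IL-4 group. They summed to 4.64 to 6.40 CPM in libraries without LPS and to 18.9 to 48.0 CPM in libraries with LPS, of which Pdgfrb, a growth factor receptor of mesenchymal cells, made up 14.0 to 41.3 CPM. Thy1 had no read in any group. The part of such cells in the results below was not tested. In bulk libraries, fewer cells of a type and less RNA per cell cannot be told apart.

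The sequences just upstream of the genes that rose after LPS show what the annotated promoters hold. RefSeq promoter windows (build GRCm38.p6) were found for 6 of the 10 genes (Mmp8, Mmp13, Mmp14, Timp1, Timp2 and Ptx3), and the 250 bases before the RefSeq start were searched on both strands. The motifs were the AP-1 site TGANTCA, the STAT site GAS as TTCNNNGAA, the interferon-response core GAAANNGAA, the TATA box TATAAA and the NF-kB consensus. The windows of 4 genes that rose are printed 5′ to 3′ in lower case, with every motif match in capitals.
Mmp13, chr9:7272264-7272513, + strand: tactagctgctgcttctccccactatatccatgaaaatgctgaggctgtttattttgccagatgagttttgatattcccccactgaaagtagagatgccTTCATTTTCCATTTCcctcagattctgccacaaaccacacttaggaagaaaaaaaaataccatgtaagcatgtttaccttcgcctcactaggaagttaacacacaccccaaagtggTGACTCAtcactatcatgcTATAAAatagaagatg
Mmp14, chr14:54431348-54431597, + strand: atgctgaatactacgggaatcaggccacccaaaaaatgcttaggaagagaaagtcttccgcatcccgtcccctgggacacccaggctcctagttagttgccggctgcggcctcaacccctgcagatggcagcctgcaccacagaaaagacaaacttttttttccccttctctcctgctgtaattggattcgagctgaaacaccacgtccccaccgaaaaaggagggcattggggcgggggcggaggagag
Timp1, chrX:20869916-20870165, + strand: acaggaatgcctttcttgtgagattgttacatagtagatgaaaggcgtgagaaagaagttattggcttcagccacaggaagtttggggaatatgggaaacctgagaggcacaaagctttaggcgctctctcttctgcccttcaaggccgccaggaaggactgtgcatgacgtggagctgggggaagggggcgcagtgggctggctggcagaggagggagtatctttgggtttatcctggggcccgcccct
Ptx3, chr3:66219637-66219886, + strand: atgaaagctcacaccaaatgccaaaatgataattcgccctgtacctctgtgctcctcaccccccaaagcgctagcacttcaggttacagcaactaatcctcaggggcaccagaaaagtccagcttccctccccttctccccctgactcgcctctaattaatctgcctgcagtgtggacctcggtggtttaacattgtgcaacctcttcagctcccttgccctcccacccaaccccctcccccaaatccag
Of the 6 windows, only that of Mmp13 held any of these motifs. Counted back from the RefSeq start, with -1 the last base before it, it held the AP-1 site TGACTCA at -35 to -29, a TATA box at -16 to -11, and on the reverse strand 2 interferon-response cores at -151 to -143 and -145 to -137, which overlap. Among the 32851 windows of the same length in the table, 6.75% held the AP-1 site, 7.13% the interferon-response core, 12.4% the TATA box, 7.02% the GAS and 7.25% the NF-kB consensus. A match in letters describes the window and was not tested as a binding site.

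At rest Timp2 had the highest level of the 10 genes. Per kb of exon length, control cells held 134.6 ± 20.0 CPM per kb of Timp2 (mean ± SD, n = 2), 27.0 ± 10.9 of Mmp19, 12.5 ± 6.01 of Mmp8, 9.27 ± 6.23 of Mmp14 and 3.65 ± 1.29 of Mmp13. Timp1, Fn1 and Mmp9 stood at or below 0.987 CPM per kb, Adamts4 had 1 read in the group and Ptx3 had none. The ranges of Timp2 and Mmp19 did not overlap, whereas those of Mmp8 and Mmp14 did. After LPS the order was led by Mmp13 with 147.9 ± 111.0 CPM per kb, followed by Timp2 with 90.1 ± 28.5 and Mmp14 with 66.6 ± 20.5, and the libraries of these 3 genes overlapped. Under IL-4 alone the first 3 places were those of the control, with Timp2 at 144.6 ± 32.0 CPM per kb. In cells given IL-4 then LPS, Mmp13 (109.6 ± 29.4 CPM per kb) and Timp2 (105.0 ± 38.3) did not differ beyond their spread, Mmp14 followed with 36.5 ± 11.97, and Ptx3 came next with 33.8 ± 1.12.

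**Figure D1:**
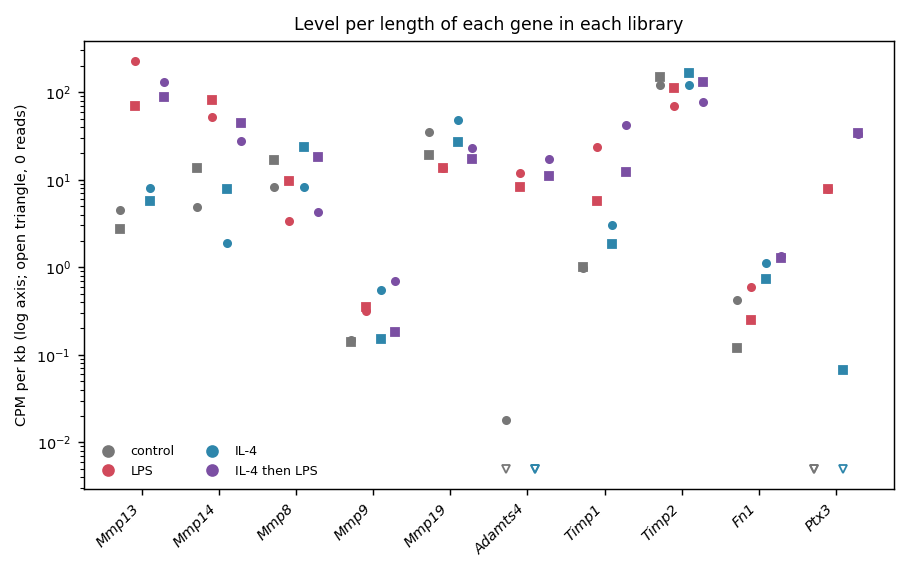
Level per length of each of the 10 genes in every library, in CPM per kb on a log axis, coloured by group (circles replicate 1, squares replicate 3, open triangles 0 reads). Timp2 was the highest in all libraries without LPS, while Adamts4 and Ptx3 held at most 2 reads in a library without LPS and 151 or more in one with LPS.

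LPS raised 5 of the 10 genes, in cells without and with prior IL-4 alike: the proteases Mmp13, Mmp14 and Adamts4, the inhibitor Timp1 and the pattern recognition protein Ptx3. In the fit without a replicate term, none of the 10 passed as lower in either comparison. Calls are made where the Benjamini-Hochberg adjusted p over all 12234 genes is under 0.05, from the quasi-likelihood test of edgeR. Against control, LPS raised 21.8% of all tested genes and lowered 18.6%, and with prior IL-4 it raised 20.7% and lowered 18.6%. The median log2 fold change of the 10 genes was 2.02 without and 1.71 with prior IL-4, against -0.01 and -0.04 over all tested genes, and the medians are the same with Adamts4 and Ptx3 at their lower bounds, since both lie above the middle of the list. The 10 genes were chosen with earlier results of these data known, so these counts and medians are no test of the group. At an unadjusted p under 0.05, and also with DESeq2, 1 gene of the 10 (Mmp19) was lower and the same 5 were higher in each of these comparisons. Of all tested genes, 49.8% without and 48.1% with prior IL-4 passed the unadjusted rule in either direction. With DESeq2 these shares were 38.7% and 37.4%. The outcome depends on scaling: with library totals alone the median of all genes moved to -0.615 and -0.557, and rises made up 21.2% and 22.5% of all calls in place of 53.9% and 52.8%. With upper-quartile scaling the medians were -0.278 and -0.284 and rises made up 36.6% and 36%, and under both scalings Mmp13, Mmp14, Adamts4, Timp1 and Ptx3 kept a positive change past the threshold while Timp2 passed as lower in both comparisons with library totals alone.

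**Figure D2:**
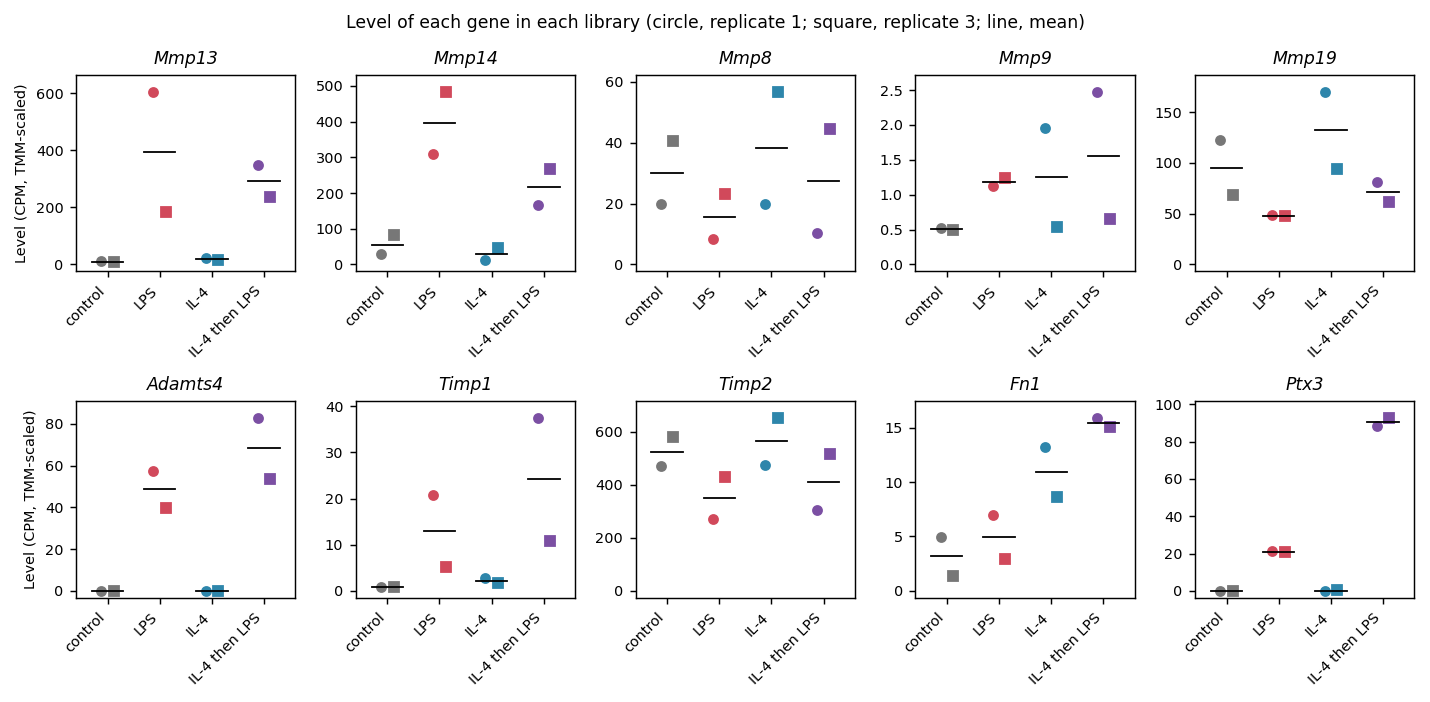
Level of each gene in each library in CPM (linear axis, a separate scale per gene), by group, with circles for replicate 1, squares for replicate 3 and lines for group means. Mmp13, Mmp14, Adamts4, Timp1 and Ptx3 were higher in every library with LPS than in any without.

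Mmp13, a secreted collagenase that cleaves fibrillar collagens (ENSMUSG00000050578, chromosome 9, 7272514 to 7283331, mm10, + strand), had the highest mean level per kb of the 6 proteases after LPS, with libraries that overlapped those of Mmp14. The control libraries held 12.2 and 7.31 CPM and the LPS libraries 605.2 and 185.6 CPM. With IL-4 alone they held 21.5 and 15.4 CPM and with IL-4 then LPS 348.6 and 237.5 CPM. Each library with LPS was far above each without, and both libraries with IL-4 alone were above both control libraries. LPS raised Mmp13 by 5.33 ± 0.61 on the log2 scale (SE, adjusted p 0.00036, edgeR), and after IL-4 by 3.99 ± 0.57 (0.00116). Without LPS replicate 1 the first value was 4.24 and without LPS replicate 3 it was 5.95, and both stayed past the threshold. IL-4 against control gave 0.91 ± 0.55 (adjusted p 0.788), and IL-4 then LPS against LPS alone -0.43 ± 0.50 (0.861), for which the LPS libraries enclosed both IL-4 then LPS libraries. The LPS response with prior IL-4 less that without it was -1.35 ± 0.74 on the log2 scale (p 0.109, adjusted p 1), which did not pass, and was -0.25 without LPS replicate 1 and -1.96 without LPS replicate 3. Its promoter window is the one above with the AP-1 site and the TATA box.

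Mmp14, the membrane-type metalloproteinase that cleaves collagen at the cell surface and activates proMMP2 (ENSMUSG00000000957, chromosome 14, 54431612 to 54445364, + strand), was present before stimulation. Control libraries held 29.0 and 81.5 CPM, LPS libraries 310.3 and 483.3 CPM, IL-4 libraries 11.2 and 46.7 CPM, and IL-4 then LPS libraries 166.9 and 267.9 CPM. Both IL-4 then LPS libraries were below both LPS libraries, whereas the ranges of IL-4 and control overlapped. Replicate 3 was the higher library in all 4 groups. The LPS effect was 2.85 ± 0.70 on the log2 scale (adjusted p 0.0142, edgeR) and 2.91 ± 0.71 after IL-4 (0.014). The first call was lost without control replicate 1 (2.23, adjusted p 0.0816) or LPS replicate 3 (2.49, 0.0542), and the second without IL-4 then LPS replicate 3 (2.53, 0.061). Without control replicate 3 the first value was 3.74, and without IL-4 replicate 3 the second was 4.30. IL-4 gave -0.93 ± 0.68 at rest (adjusted p 0.836) and -0.87 ± 0.66 before LPS (0.775). The value at rest was -0.014 without control replicate 3, -1.53 without control replicate 1, -0.27 without IL-4 replicate 1 and -2.34 without IL-4 replicate 3. Each of these sets 1 replicate number in a group against both in the other. Within replicates 1 and 3 the log2 ratios of CPM (0.5 CPM added) were -1.33 and -0.80 at rest, and -0.89 and -0.85 before LPS. Neither IL-4 effect passed, and the difference of the LPS responses was 0.06 ± 0.93 (adjusted p 1).

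Adamts4, a secreted protease that cleaves the proteoglycans aggrecan and versican (ENSMUSG00000006403, chromosome 1, 171250421 to 171260637, + strand), was found almost only in libraries with LPS. It held 1 and 0 reads in the control libraries and 0 in both IL-4 libraries, where 3 reads would correspond to 0.259 to 0.296 CPM. The LPS libraries held 412 and 286 reads (57.6 and 39.5 CPM) and the IL-4 then LPS libraries 568 and 414 (82.7 and 53.7 CPM). The ratio of LPS to control was 1052 (95% counting interval 188.1 to 41600, exact conditional binomial; adjusted p 4.37e-05, edgeR), and cells given IL-4 then LPS held at least 499.7-fold more than cells given IL-4 (adjusted p 3.46e-05). The bound sets the group without reads at a floor of 3 reads over its libraries, and both limits cover counting error only. IL-4 then LPS against LPS alone gave 0.49 ± 0.29 on the log2 scale (adjusted p 0.713), with overlapping libraries.

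The remaining proteases did not pass in any of the comparisons in the main edgeR fit, which has no replicate term. Mmp19, a secreted metalloproteinase of basement membrane components (ENSMUSG00000025355, chromosome 10, 128790910 to 128800824, + strand), held 122.6 and 68.1 CPM in control, 48.5 and 47.6 CPM with LPS, 169.9 and 94.3 CPM with IL-4, and 81.6 and 61.0 CPM with IL-4 then LPS. Both LPS libraries were below both control libraries, and both IL-4 then LPS libraries below both IL-4 libraries. The LPS effect was -0.99 ± 0.35 on the log2 scale (adjusted p 0.0533, edgeR; 0.0172 with DESeq2) and -0.89 ± 0.34 after IL-4 (0.0738; 0.0393 with DESeq2). The first passed with library totals alone (-1.60, adjusted p 0.00926), with upper-quartile scaling (0.0238), in a fit of these 2 groups alone (0.0388) and without control replicate 3 (-1.39, 0.0195) or either IL-4 library (0.0242 and 0.0244), and was -0.56 (0.259) without control replicate 1. The second passed with library totals alone (-1.42, 0.0155), with upper-quartile scaling (0.0338) and without either control library (0.0454 and 0.0465) or IL-4 replicate 3 (-1.23, 0.0281), and was -0.40 (0.422) without IL-4 replicate 1. IL-4 gave 0.47 ± 0.34 at rest and 0.57 ± 0.35 before LPS (adjusted p 0.832 and 0.717). It shares 789 bases with Tmem198b on the opposite strand, which held 6 to 138 reads per library.

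Mmp8, known as the neutrophil collagenase (ENSMUSG00000005800, chromosome 9, 7558456 to 7568485, + strand), was read in every library. It stood at 19.9 and 40.5 CPM in control, 8.25 and 23.2 CPM with LPS, 19.8 and 56.8 CPM with IL-4, and 10.3 and 44.6 CPM with IL-4 then LPS. Replicate 3 was the higher library in all 4 groups, and all groups overlapped. Of the 11 markers of neutrophils and their precursors, Ly6g, Elane and Retnlg had no read in any library, and S100a8 held 9 to 40 reads per library and S100a9 0 to 12. Both of these calgranulin genes were, like Mmp8, higher in replicate 3 than in replicate 1 in all 4 groups, and the part of such cells in the level of Mmp8 was not tested. The remaining 6 markers held 0 to 4 reads per library. The LPS effect was -0.94 ± 0.80 on the log2 scale (adjusted p 0.375, edgeR) and -0.47 ± 0.77 after IL-4 (0.662). Mmp9, gelatinase B, which degrades gelatin and basement membrane collagen (ENSMUSG00000017737, chromosome 2, 164940780 to 164955850, + strand), had only 5 to 22 reads per library. These were 6 and 5 reads in control, 8 and 9 with LPS, 22 and 6 with IL-4, and 17 and 5 with IL-4 then LPS. The control libraries (0.519 and 0.494 CPM) were below every other library, and replicate 1 was the higher library in both groups with IL-4. LPS gave 1.20 ± 0.89 (adjusted p 0.313) and IL-4 gave 1.28 ± 0.85 (0.816). The second was 0.077 without IL-4 replicate 1 and 1.88 without IL-4 replicate 3.

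The 2 inhibitors differed in level and in response. Timp1, a secreted inhibitor known as an acute-phase and cytokine-induced gene (ENSMUSG00000001131, chromosome X, 20870166 to 20874735, + strand), was low at rest with 0.864 and 0.889 CPM in control (10 and 9 reads). LPS libraries held 20.8 and 5.11 CPM, IL-4 libraries 2.68 and 1.63 CPM, and IL-4 then LPS libraries 37.4 and 10.9 CPM. Groups with and without LPS did not overlap, and replicate 1 was the higher library in the 3 stimulated groups. LPS raised Timp1 by 3.87 ± 0.89 on the log2 scale (adjusted p 0.0105, edgeR) and after IL-4 by 3.47 ± 0.79 (0.0104). The first call was lost without control replicate 1 (adjusted p 0.0642), control replicate 3 (0.0558) or LPS replicate 1 (2.52, 0.0554), and the value was 4.55 without LPS replicate 3. The second was lost without IL-4 replicate 3 (0.0596) or IL-4 then LPS replicate 1 (2.33, 0.056). IL-4 against control gave 1.28 ± 0.97 (adjusted p 0.843) and IL-4 then LPS against LPS alone 0.89 ± 0.69 (0.78). Timp1 lies within the span of Syn1 on the opposite strand (28 to 164 reads per library). The sources used here do not give the strand setting of the counting, and the overlap of exons was not looked at. Whether reads of this pair were mixed was not tested.

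Timp2, which both inhibits metalloproteinases and assists in proMMP2 activation (ENSMUSG00000017466, chromosome 11, 118301069 to 118355740, - strand), held 469.4 and 579.6 CPM in control and 272.3 and 429.5 CPM with LPS. With IL-4 it held 475.2 and 651.4 CPM and with IL-4 then LPS 303.7 and 514.6 CPM. Both LPS libraries were below both control libraries, whereas the IL-4 and IL-4 then LPS libraries overlapped. The LPS effect was -0.58 ± 0.32 on the log2 scale (adjusted p 0.178, edgeR) and -0.46 ± 0.31 after IL-4 (0.283), and IL-4 gave 0.10 ± 0.31 at rest (0.979) and 0.22 ± 0.31 before LPS (0.893). With library totals alone both LPS values passed, at -1.19 (0.00877) and -0.99 (0.0196).

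**Figure D3:**
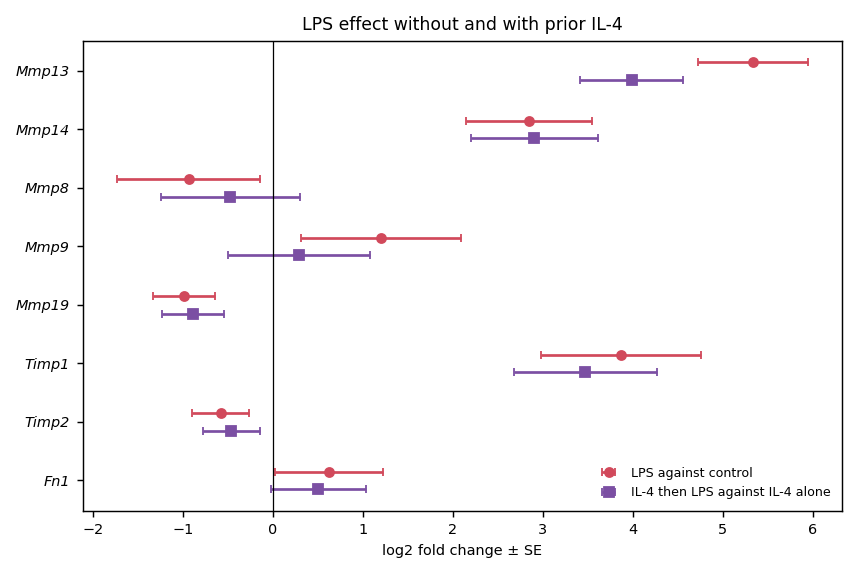
LPS effects as log2 fold change ± SE in cells without prior IL-4 (red circles) and with it (purple squares) for the 8 genes with reads in all groups; Adamts4 and Ptx3, nearly without reads in unstimulated cells, are not drawn. Mmp13, Timp1 and Mmp14 lie at 2.85 or above in both arms, and the error bars of Mmp19 and Timp2 lie below 0 in both.

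Ptx3, a secreted pentraxin that binds microbes and complement C1q and helps to cross-link hyaluronan in the matrix (ENSMUSG00000027832, chromosome 3, 66219910 to 66225805, + strand), was read almost only in libraries with LPS. It held 0 reads in both control libraries and 0 and 2 in the IL-4 libraries. LPS libraries held 152 and 151 reads (21.3 and 20.8 CPM), and IL-4 then LPS libraries 607 and 715 (88.4 and 92.7 CPM). The libraries of a group lay close together, and both IL-4 then LPS libraries were far above both LPS libraries. LPS cells held at least 152.2-fold more than control (adjusted p 2.97e-05, edgeR), and IL-4 then LPS cells 1009-fold more than IL-4 cells (95% counting interval 278.8 to 8341, adjusted p 1.45e-05). Against LPS alone, the level after IL-4 then LPS was 4.30-fold higher, a log2 fold change of 2.10 ± 0.23 (p 4.98e-05), with an adjusted p of 0.0508 that just missed the threshold. With DESeq2 it passed (adjusted p 2.94e-13), as it did in a fit of these 2 groups alone (0.0274). In edgeR it also passed without control replicate 1 (0.0385), control replicate 3 (0.0399), IL-4 replicate 1 (0.0157) or IL-4 replicate 3 (0.0163). Leaving out one of the 4 libraries compared gave adjusted p-values of 0.177 to 0.373, with log2 fold changes of 2.07 to 2.14 over all 8 libraries left out. Ptx3 lies within Veph1 on the opposite strand, which had no read in any library.

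Fn1, the matrix glycoprotein fibronectin (ENSMUSG00000026193, chromosome 1, 71585520 to 71653200, - strand), was higher in libraries with IL-4. Control libraries held 4.93 and 1.38 CPM and LPS libraries 6.99 and 2.90 CPM. IL-4 libraries held 13.2 and 8.60 CPM and IL-4 then LPS libraries 15.9 and 15.0 CPM. Each library with IL-4 was above each library without it. IL-4 gave 1.77 ± 0.57 on the log2 scale at rest, a 3.40-fold higher level (p 0.0151, adjusted p 0.523, edgeR), and 1.64 ± 0.57 before LPS, 3.12-fold (p 0.021, adjusted p 0.476). Neither passed the adjustment over all genes in this fit, whereas both passed with the replicate number as a block. The first was 2.92 without control replicate 1 and 1.12 without control replicate 3, and the second 2.41 without LPS replicate 1 and 1.14 without LPS replicate 3. LPS gave 0.63 ± 0.60 (adjusted p 0.435) and, after IL-4, 0.50 ± 0.53 (0.487), and the latter was -0.025 with library totals alone.

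IL-4 alone did not move any of the 10 genes past the threshold in the fit without a replicate term. In edgeR's quasi-likelihood test, 0 of 10 rose and 0 fell against control, where 0.0572% of all tested genes rose and 0.00817% fell. At an unadjusted p under 0.05 the count was 1 (Fn1, higher), and with DESeq2 it was 0. By these 2 rules 7.29% and 0.899% of all tested genes passed in either direction. With the replicate number as a block Fn1 passed as higher, where 183 of all tested genes were higher and 105 lower. The libraries of the groups did not overlap for 4 of the 10 (Mmp9, Mmp13, Timp1 and Fn1), all higher with IL-4, where 19.4% of all tested genes were higher and 19.2% lower without overlap. For Mmp9 the nearest libraries held the same 6 reads, 0.543 CPM in IL-4 replicate 3 and 0.519 CPM in control replicate 1. They were apart only through the scaled library totals. The median log2 fold change of the 10 genes was 0.69, against -0.000396 over all tested genes. No fold is given for Adamts4 and Ptx3, which held at most 2 reads in either group.

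Prior IL-4 before LPS gave a like count. Against LPS alone, 0 of 10 rose and 0 fell, where 0.049% of all tested genes rose and 0.0163% fell. At an unadjusted p under 0.05 the count was 2 (Fn1 and Ptx3, both higher), and DESeq2 called 1 (Ptx3). By these 2 rules 8.5% and 0.973% of all tested genes passed in either direction. With the replicate number as a block Fn1 and Ptx3 passed as higher, where 132 of all tested genes were higher and 149 lower. The median of the 10 was 0.53, against -0.03 over all tested genes. The libraries of the groups did not overlap for 4 of the 10, with Ptx3, Fn1 and Mmp19 higher and Mmp14 lower after IL-4 then LPS, where 16.6% of all tested genes were higher and 19.8% lower without overlap. In the test of whether prior IL-4 altered the LPS response, 0 of 10 genes passed in either direction, as did 0% of all tested genes in each direction. Among the 10 the unadjusted count was 0 and the DESeq2 count was 0, against 2.63% and 0.0409% of all tested genes. This design shares its control and LPS libraries between comparisons, so the values of one comparison are not independent of the next.

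**Figure D4:**
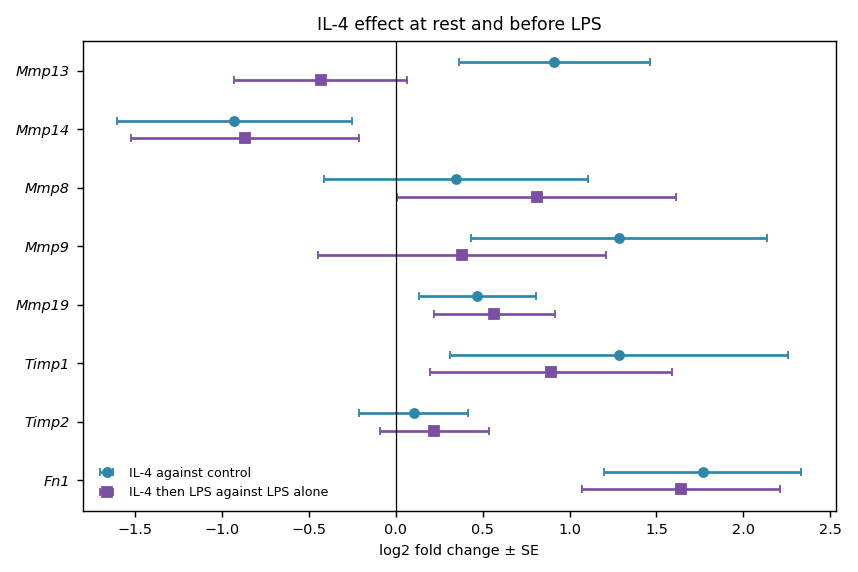
IL-4 effects as log2 fold change ± SE at rest (blue circles) and before LPS (purple squares) for the same 8 genes. Fn1 has the highest value in both (1.77 and 1.64), Mmp14 has -0.93 and -0.87, and Mmp13 is 0.91 at rest and -0.43 before LPS.

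Other genes of matrix turnover were grouped by role, with earlier results of these data known, and read against the same backgrounds. Of all tested genes, 21.8% rose and 18.6% fell with LPS, and 20.7% rose and 18.6% fell with LPS after IL-4. The counts of these lists are no test of a list. Of 18 other metalloproteinases 5 were tested, and 2 rose with LPS: Mmp25, a membrane-anchored enzyme of leukocytes, by 4.89 ± 0.75 on the log2 scale (adjusted p 0.0015, edgeR), and Mmp2, gelatinase A, by 2.47 ± 0.68 (0.0225). Mmp2 held 2.51 and 2.47 CPM in control and 7.13 and 20.6 CPM with LPS, and its call was lost without either control library or without LPS replicate 3 (1.51, with adjusted p 0.0977 to 0.153 over these 3). With LPS after IL-4, 1 of the 5 rose: Mmp25, from 1 read to 78 over the group, a ratio of 119.1 (95% counting interval 20.8 to 4763). The other inhibitors Timp3 and Reck, the only 2 of 7 tested, did not pass in either comparison, also at an unadjusted p under 0.05 and with DESeq2 (0 each). Among 6 tested of 23 other ADAMTS and ADAMTS-like genes, Adamts6 rose with LPS by 1.69 ± 0.57 (0.0463). That call was lost when any one of the 8 libraries was left out, and with DESeq2 (adjusted p 0.0703). It was also lost with upper-quartile scaling, library totals alone or no filter (0.0635 to 0.147). Adamts10, which binds fibrillin microfibrils, fell by 1.69 (0.0177) and after IL-4 by 2.09 (0.00766). The first was lost without control replicate 1 (0.0767) or LPS replicate 3 (0.0952), and the second without IL-4 then LPS replicate 3 (0.0572).

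The system that activates proenzymes responded in most of its tested genes. Of 10 tested of 13 listed, 7 rose and none fell with LPS, and 7 rose and 1 (Plau, urokinase, by -1.08 ± 0.27, adjusted p 0.0158, edgeR) fell with LPS after IL-4. The shares of all tested genes were 21.8% and 18.6% with LPS, and 20.7% and 18.6% with LPS after IL-4. Plat, the tissue plasminogen activator, went from 0 reads to 54 over the LPS group (at least 27.1-fold, adjusted p 0.0041), and its call after IL-4 (0.0117) was lost without IL-4 replicate 1 or IL-4 then LPS replicate 1 (0.0639 and 0.059). Serpinb2, an inhibitor of plasminogen activators, rose by 4.63 ± 0.58 (0.000564), or by 7.09 without control replicate 1 and 3.78 without control replicate 3, which held 13 reads and 1 read.

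Of 8 tested of 11 sheddases and their cofactors, 3 rose and 2 fell with LPS, and 2 rose and 2 fell with LPS after IL-4. Among all tested genes 21.8% rose and 18.6% fell with LPS, and 20.7% and 18.6% with LPS after IL-4. Rhbdf2, the rhomboid-like partner of the sheddase ADAM17, rose from 68.6 ± 9.67 to 488.1 ± 19.3 CPM (log2 fold change 2.83 ± 0.22, adjusted p 5.56e-05, edgeR), and Rhbdf1 rose by 3.42 ± 0.47 (0.00087). Adam19 fell by 3.72 (0.0324), a call lost without control replicate 3 or LPS replicate 1 (adjusted p 0.123 and 0.119), and the value was -8.17 without LPS replicate 3. All 8 genes listed with the cathepsins and heparanase, among them the cathepsin inhibitor Cst3, were tested and 0 passed in either LPS comparison. At an unadjusted p under 0.05 that count was 0 without prior IL-4 and 1 (lower) with it, and with DESeq2 it was 0 in both.

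Of 21 tested of 30 other matrix-binding secreted proteins, 7 rose and 2 fell with LPS, and 6 rose and 2 fell with LPS after IL-4. For this list and those below, the shares of all tested genes were 21.8% risen and 18.6% fallen with LPS. With LPS after IL-4 they were 20.7% and 18.6%. Vcan, the proteoglycan versican and a substrate of Adamts4, rose from 6.91 ± 0.131 to 263.4 ± 92.6 CPM (5.25 ± 0.40 on the log2 scale, adjusted p 4.78e-05, edgeR), and by 5.99 ± 0.41 after IL-4 (3.46e-05). Fbn1, the microfibril protein fibrillin 1, rose by 5.94 ± 0.48 (6.64e-05; 7.24 without control replicate 1 and 5.28 without control replicate 3), and Tnc, tenascin C, was 47.7-fold higher (95% counting interval 15.8 to 235.5). Among 13 tested of 18 fibronectin and hyaluronan receptors and synthases, 8 rose and 3 fell with LPS, and 8 rose and 4 fell with LPS after IL-4. Sdc4, the heparan sulfate proteoglycan syndecan 4 that binds fibronectin, rose by 4.68 ± 0.36 (4.88e-05), and Itga4, a subunit of a fibronectin-binding integrin, by 2.66 ± 0.30 (0.000345). Has1, a hyaluronan synthase, went from 0 to 31 reads over the LPS group (at least 15.6-fold, 0.00877). Of 9 tested of 15 other pentraxins and partners of Ptx3, 2 rose and 0 fell with LPS, the Fc receptors Fcgr1 (2.22 ± 0.18, 7.28e-05) and Fcgr2b (2.14 ± 0.24, 0.000351). With LPS after IL-4, against IL-4 alone, both rose as well and Fcgr3 fell. With IL-4 itself Fcgr1 was lower, at a mean of 31.2 CPM against 70.9 CPM in control. After IL-4 then LPS it held 117.8 CPM, against 330.3 CPM with LPS alone. DESeq2 called Fcgr1 lower in both of these IL-4 comparisons. In IL-4 against control and in IL-4 then LPS against LPS alone, 0 of the 82 tested genes of these 9 lists passed in edgeR's test without a replicate term. At an unadjusted p under 0.05 there were 14 and 15, against 7.29% and 8.50% of all tested genes, and DESeq2 called 6 and 5, against 0.899% and 0.973% of all tested genes. In the difference of the LPS responses 0 passed, with 3 at an unadjusted p under 0.05 (2.63% of all tested genes) and 0 with DESeq2.

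Mmp13 and Mmp8 belong to a cluster of 10 metalloproteinase genes over 427 kb of chromosome 9, and 4 of them (Mmp1a, Mmp1b, Mmp7 and Mmp20) had no read. Mmp8 starts 285.9 kb from the start of Mmp13. Mmp12, macrophage elastase, which starts 71.9 kb from the start of Mmp13, had the most reads of the cluster and was singled out after its values were seen. It held 1413 and 928.5 CPM in control, 2318 and 1679 CPM with LPS, 3141 and 2459 CPM with IL-4, and 4439 and 3611 CPM with IL-4 then LPS. The 4 groups did not overlap, in that order. IL-4 gave 1.26 ± 0.27 on the log2 scale at rest (p 0.00185, adjusted p 0.228, edgeR; 0.00203 with DESeq2) and 1.01 ± 0.27 before LPS (p 0.00611, adjusted p 0.344; 0.0321 with DESeq2). LPS gave 0.77 ± 0.27 (adjusted p 0.0533; 0.015 with DESeq2) and 0.52 ± 0.27 after IL-4 (0.162; 0.106 with DESeq2), the first passing without control replicate 1 (1.045, 0.0467), and with library totals alone these were 0.17 and 0.0011. By their means, the LPS group was the highest of the 4 for Mmp13 and the lowest for Mmp8.

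**Figure D5:**
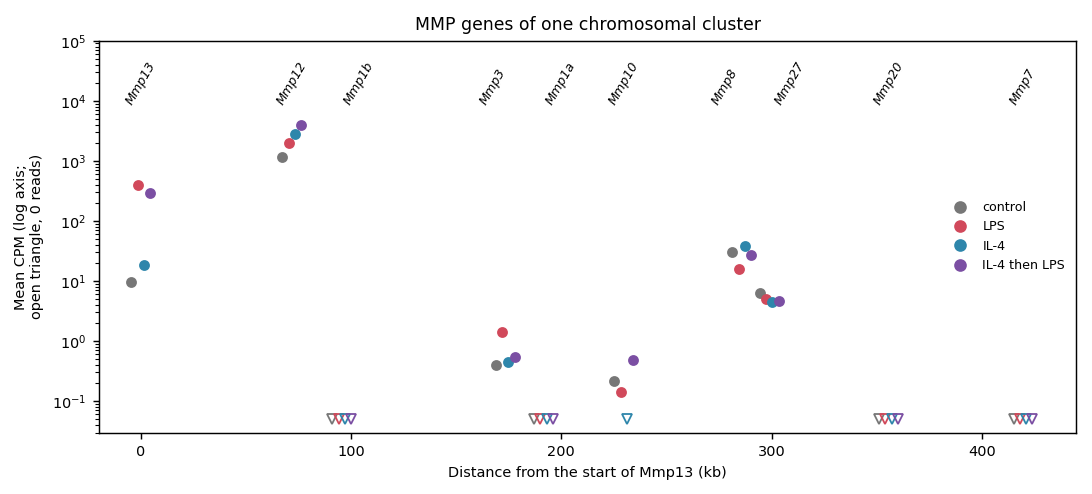
Mean CPM of each metalloproteinase gene of the chromosome 9 cluster on a log axis, by group (n = 2 each), against distance from the start of Mmp13 in kb; points of a gene are set slightly apart and open triangles mark 0 reads. Mmp12 has the highest mean in every group, Mmp13 separates by LPS, and the groups of Mmp8 lie between 15.7 and 38.3 CPM.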

How the data were processed

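RNA of 8 libraries (4 groups of 2) was sequenced from libraries made by Illumina protocols, per the labels' protocols. The authors deposited raw read counts, whole numbers per gene, with a gene length and coordinates for each gene, per the file headers. HISAT2, StringTie and HTSeq are named with the mm10 genome, per the submitters' processing notes, and versions, strandedness and the handling of reads that match several genes are not given in the sources used here. The table holds 6 further count columns without a label, not used here. All 10 genes had the same start and end in GENCODE M21, and levels per kb use the deposited gene length.

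Counts were fitted with edgeR 4.0.16 (R 4.3.3, limma 3.58.1): filterByExpr, TMM scaling (factors 0.787 to 1.25), 1 mean per group over all 8 libraries without a replicate term (4 residual degrees of freedom), and the quasi-likelihood test. The 12234 tested genes held 99.837% to 99.917% of counts. The SE is the absolute log2 fold change over the square root of F. Ratios against 1 to 3 reads carry an exact 95% interval, and a group without reads is set at 3 reads. The labels name no molecular identifiers, and these cover counting error only. The spread behind each edgeR p-value comes from 2 libraries per group, pooled over the 4 groups. It is moderated toward a trend over all tested genes (3.78 prior degrees of freedom). Whether the 2 libraries of a group came from separate animals is not in the labels. Xist was read in every replicate 1 and in no replicate 3, so these libraries are not repeat preparations of the same RNA. DESeq2 1.42.0, other scalings, no filter, a replicate term, only the groups compared and leaving out each library were the alternatives. The pipeline was run on simulated data with few changed genes and no replicate difference, which is no test of the scaling or replicate choices.

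All 10 genes are named in every comparison, and from every other list up to 3 called genes per comparison with the largest absolute log2 fold change of at least 1. The genes and lists were chosen with earlier results of these data known. Further list genes (Plau, Fcgr3, Timp3, Reck and Mmp12) were named after their values were seen. RefSeq promoter sequences come from GRCm38.p6. Some genes that this rule names, or that overlap a named gene, are not reported here. Protein sequences were not used.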

Additional observations from a re-analysis of the deposited data

How the results depend on the processing

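The counts of the 10 genes that passed, 5 higher and 0 lower in each LPS comparison and 0 in the others, depended on the following choices; causes were not tested. With DESeq2 and with upper-quartile scaling, 1 gene (Mmp19) was lower in each LPS comparison, and in a fit of only the 2 groups compared it was 1 without prior IL-4 and 0 with it. DESeq2 and the fit of only 2 groups each called 1 gene (Ptx3) higher in IL-4 then LPS against LPS alone. With library totals alone 2 were lower after LPS in each arm, and Mmp9 and Fn1 turned to -0.22 and -0.025 for LPS after IL-4 against IL-4. Without the low-count filter 3 were lower after LPS and 2 with prior IL-4, 2 were higher and 1 lower with IL-4, 3 were higher and 1 lower in IL-4 then LPS against LPS alone, and 1 (Mmp13, adjusted p 0.00274) was lower in the difference of the LPS responses, for which a fit of only the groups compared has no separate value. With 1 library left out, 3 to 5 rose with LPS and 4 to 5 with LPS after IL-4, 0 to 1 fell in each, and 0 to 1 rose in IL-4 then LPS against LPS alone; an arm left with 1 library is assumed to vary like the others.

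Some values that had not passed changed sign when 1 library was left out. In LPS against control, Fn1 ran from -0.14 to 1.76 on the log2 scale. In IL-4 against control, Mmp8 ran from -0.65 to 0.93, Mmp19 from -0.036 to 0.91 and Timp2 from -0.19 to 0.29. Within replicates 1 and 3 the ratios were -0.006 and 0.48 for Mmp8, 0.470 and 0.467 for Mmp19, and 0.018 and 0.17 for Timp2. In IL-4 then LPS against LPS alone, Mmp8 ran from -0.60 to 1.74, Mmp9 from -0.85 to 1.06, Mmp13 from -1.04 to 0.66, Timp1 from -0.25 to 2.24 and Timp2 from -0.21 to 0.59. Here the ratios within replicates 1 and 3 were 0.31 and 0.93 for Mmp8, 0.83 and 1.02 for Timp1, and 0.16 and 0.26 for Timp2. They differed in sign for Mmp9 (0.88 and -0.60) and Mmp13 (-0.795 and 0.355). For LPS after IL-4 against IL-4, Mmp8 ran from -1.89 to 0.50 and Mmp9 from -0.94 to 1.48. In the difference of LPS responses, Mmp8 ran from -0.95 to 1.49, Mmp9 from -2.14 to 0.33, Mmp14 from -0.83 to 1.501, Mmp19 from -0.32 to 0.63, Timp1 from -1.54 to 0.95, Timp2 from -0.31 to 0.49 and Fn1 from -1.25 to 0.65.

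The labels do not say what the replicate numbers share. With the replicate number as a block, 3 genes were lower after LPS (Mmp8 -1.03, adjusted p 0.00435; Mmp19 -0.92, 0.00303; Timp2 -0.61, 0.00306) and 2 with prior IL-4 (Mmp19 and Timp2). Fn1 was higher with IL-4 (1.83, 0.0365), and 2 were higher in IL-4 then LPS against LPS alone (Fn1 1.74, 0.0481, and Ptx3 2.10, 0.00154). Mmp12 passed in all 4 comparisons of groups (adjusted p 0.000477 and 0.00467 with LPS, 0.0018 and 0.00487 with IL-4). Deviations from the group means of libraries with the same number correlated at 0.343 to 0.524 over 12234 genes, and Xist held 2936 to 4465 reads in each replicate 1 and 0 in each replicate 3, a hint from the data and not the design.

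Over all tested genes, 7 higher and 1 lower with IL-4 became 183 and 105 with the block, 65 and 45 with DESeq2, and 198 and 162 without the filter. For IL-4 then LPS against LPS alone, 6 and 2 became 132 and 149, 61 and 58, and 172 and 225, and the 2 lower genes became 1 with only the 2 groups. For the difference, 0 and 0 became 0 and 1, 4 and 1, and 16 and 37. With library totals alone LPS gave 1549 higher and 5744 lower, and after IL-4 1546 and 5320, and with upper-quartile scaling the lower genes were 3542 and 3426. Mmp9 had 5 to 22 reads per library, and the part of depth in its SE was not tested.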
